A study of Mus musculus with 6 samples.

Results

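The endoplasmic reticulum (ER) folding and secretory machinery was followed in mouse tendon cells as a set of 32 named genes, all of which were among the 24413 genes measured. The genes were chosen by name: BiP and its partners, protein disulfide isomerases, lectin chaperones, prolyl isomerases, sensors of the unfolded protein response, and genes for ER-associated degradation, protein translocation and vesicle coats. Earlier results of these data were known when they were chosen. The 3 treated libraries came from cells kept for 24 h in medium conditioned by cultured dorsal root ganglia (DRG), which hold the cell bodies of sensory neurons. The 3 control libraries came from the same kind of cells kept in medium with 1% FBS. All cells were sorted for tdT from the Achilles tendons of 3 male mice aged 12 weeks, labelled Tppp3ECE/+;R26RtdT-CreERT2;ScxGFP, with gates on GFP and tdT. A cell and its offspring keep making tdT after the Cre has acted, so a sorted cell need not express Tppp3 at harvest. The ganglia came from 3 male C57BL/6J mice aged 12 weeks and were first grown with 5-fluoro-2-deoxyuridine and uridine at 20 µM each. They were then moved to medium with 1% FBS, which was passed through a 0.22 µm filter before use. No label ties a library to one animal. The p-values therefore only set the difference between media against the spread of these libraries, which may be technical in part. What the ganglia released, what they used up and what drug remained cannot be told apart in this design.

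Secreted and membrane proteins enter the ER through the Sec61 channel, are folded there by chaperones, disulfide isomerases and prolyl isomerases, and leave in vesicles coated by COPII. When unfolded proteins build up, the sensors IRE1, ATF6 and PERK start the unfolded protein response, which raises chaperone and degradation genes through the transcription factors XBP1, ATF6 and ATF4. Tendon fibroblasts secrete large amounts of collagen, which needs its own set of ER enzymes and chaperones.

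Sec61a1, a translocon subunit, P4hb, a disulfide isomerase, and Fkbp10, a prolyl isomerase, fell by 14.8%, 10.2% and 10.3% of their control mean. They were 1 of 3 translocon genes, 1 of 6 disulfide isomerases and 1 of 3 prolyl isomerases, and no test compared the roles. Of the 32 members, all of which passed the filter of a mean of at least 1 FPKM (fragments per gene, scaled for gene length and library), 3 fell, 0 rose and 29 did not pass. The test was limma on log2(FPKM + 1), with Benjamini-Hochberg adjustment over 11678 genes and a threshold of 0.05. At an unadjusted p below 0.05 there were 7 lower and 1 higher members, and limma's voom on recovered fragments called 4 lower and 0 higher. Over all tested genes, 8.41% were lower and 11.2% higher at an unadjusted p below 0.05, and voom called 4.10% lower and 5.56% higher. Of the members 9.38% were thus called lower, against 2.49% of all tested genes, of which 4.04% were called higher and 6.53% in either direction. Among the 7459 genes at or above the level of the lowest member, 3.07% were called lower, 5.40% higher and 8.47% in either direction. No test was made of this difference in share. The members were not a random draw of genes and were chosen with earlier results of these data known.

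The members had a median log2 fold change of -0.03, against 0.01 over all tested genes, with a range of -0.24 to 0.16. The point estimate was below 0 for 27 of the 32 (84.4%) and for 48.0% of all tested genes. In 8 of the 32 members the 3 conditioned libraries all lay below the 3 control libraries, which was so for 11.6% of all tested genes and 12.3% of those at or above the lowest member. Those 8 were Sec61a1, P4hb, Fkbp10, Dnajb9, Pdia5, Xbp1, Hsp90b1 and Pdia3. In 0 members did the conditioned libraries all lie above the controls, against 14.3% of all tested genes and 17.3% of those at or above the lowest member. The groups were apart in either direction for 26.0% of all tested genes and 29.6% of those at or above the lowest member. The summed FPKM of the 32 members was 2741, 2713 and 2712 in conditioned replicates 1 to 3, against 2826, 2835 and 2889 in control replicates 1 to 3. The sum thus lay lower in every conditioned library, at 95.2% to 96.2% of the control mean. A sum weighs members by their level, and P4hb, Calr and Pdia3 were the 3 most abundant. P4hb, which was called lower, averaged 419 FPKM in conditioned and 467 FPKM in control libraries. The means of Pdia3 were 356 and 374 FPKM, and those of Calr 398 and 406 FPKM with overlapping groups. In bulk RNA, fewer cells of a type and less RNA per cell cannot be told apart.

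Replicates lay close together, with a median coefficient of variation of 2.94% in conditioned and 3.33% in control libraries. Each member was covered by 241 to 35031 fragments per library. For 20 of the 29 members that did not pass, the 95% interval of the log2 fold change lay within ±0.2. A miss of the threshold does not show that a gene was equal in both media. Control replicate 3 held the highest value of 11 members and control replicate 1 that of 9, so the high control values did not sit in 1 library alone.

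**Figure D1:**
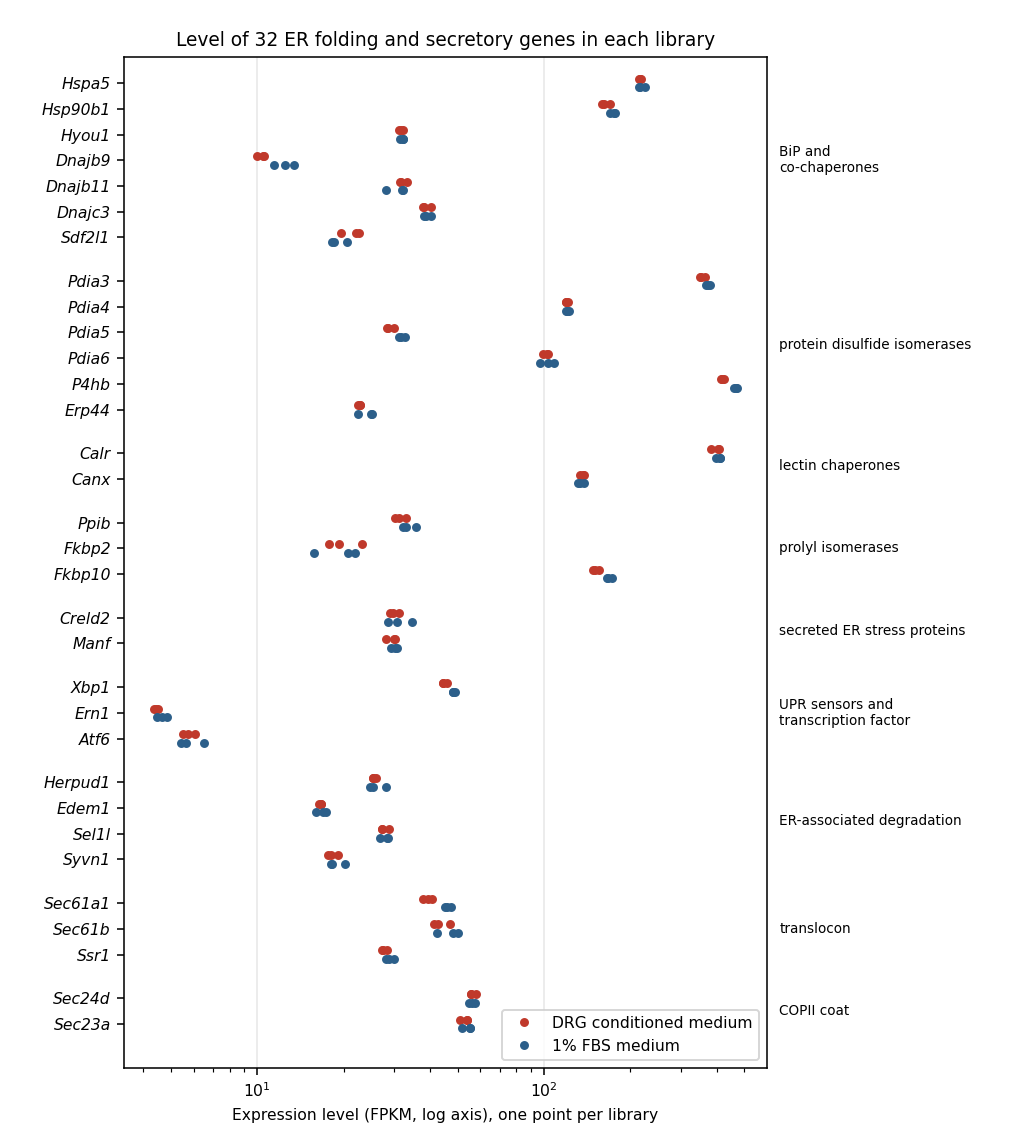
Level of each of the 32 genes in FPKM on a log axis, with one point per library, conditioned medium above and 1% FBS medium below in each row, grouped by role. P4hb, Sec61a1 and Fkbp10 have all 3 conditioned points left of the 3 control points, while the points of BiP (Hspa5), Pdia4, Hyou1 and the degradation genes overlap.

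The libraries held 18774547 to 26061238 fragments in the table, and the values of a gene correlated across genes at 0.990 to 0.992 within a medium and 0.984 to 0.988 between media. Defining markers of tendon fibroblasts were present (8 of 9 tested), and 5 of them fell with conditioned medium (Fmod, Tnmd, Thbs4, Col1a2 and Col1a1). The other 3 tested did not pass, with log2 fold changes of -0.18 for Scx, 0.01 for Mkx and 0.17 for Pdgfra, whose conditioned libraries all lay above the controls (adjusted p = 0.0725, 0.982 and 0.0618). Tppp3 itself was at 0.777 to 1.12 FPKM in conditioned and 0.724 to 1.05 FPKM in control libraries and was not tested. Of 12 DRG neuron markers 8 were in the table and 1 was above the filter, Tubb3, which fell. The summed level of those 8 was 16.9 to 17.9 FPKM in conditioned and 22.4 to 25.1 FPKM in control libraries, nearly all of it Tubb3. Schwann and satellite glia markers summed to 2.19 to 3.45 FPKM in conditioned and 3.33 to 4.00 FPKM in control libraries, with Sox10 at 0 in 5 of the 6. Only S100b was tested, and its conditioned libraries all lay below the controls without passing (adjusted p = 0.102). Below the filter, Fabp7 lay the same way, and Mbp and Cdh19 the other way. Macrophage markers summed to 6.68 to 7.02 FPKM in conditioned and 6.63 to 7.75 FPKM in control libraries, with Adgre1 at 0 in 5 of the 6. Of the 3 tested, none passed. The conditioned libraries of Lyz2 all lay below the controls (adjusted p = 0.0834). Cd68 and Cd14 had log2 fold changes of 0.14 and 0.12 with overlapping groups. Endothelial and mural markers summed to 25.6 to 26.7 FPKM in conditioned and 21.9 to 22.8 FPKM in control libraries, of which Myh11, smooth muscle myosin, rose. Cspg4, also tested, did not pass (log2 fold change 0.08). Rgs5 and Pecam1, below the filter, lay lower in all conditioned libraries, Rgs5 at 0.440 to 0.546 against 0.748 to 1.06 FPKM. The part of these markers in the results below was not tested.

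Among the sensors, Xbp1, the transcription factor that IRE1 activates by splicing its mRNA, had the largest difference. Its level was 44.4, 44.5 and 45.8 FPKM in conditioned libraries, against 48.0, 48.8 and 48.2 FPKM in control libraries. The groups did not overlap, but the log2 fold change of -0.10 ± 0.03 SE did not pass (limma adjusted p = 0.122). The table gives 1 value per gene, so the spliced and unspliced forms of Xbp1 mRNA were not told apart. Ern1, which encodes IRE1 and was the least abundant member, averaged 4.42 ± 0.0816 FPKM in conditioned and 4.66 ± 0.199 FPKM in control libraries (SD, n = 3 each). Atf6, a sensor that is cleaved in the Golgi to release a transcription factor, averaged 5.76 ± 0.265 FPKM in conditioned and 5.85 ± 0.578 FPKM in control libraries. Neither passed (adjusted p = 0.590 and 0.933).

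BiP (Hspa5), the main ER chaperone of the Hsp70 family and the textbook readout of the unfolded protein response, differed little between the media. It had 216, 215 and 217 FPKM in conditioned libraries, against 216, 215 and 225 FPKM in control libraries. The groups overlapped, and the 95% interval of the log2 fold change ran from -0.09 to 0.06 (adjusted p = 0.835). Hsp90b1, the ER Hsp90 also called GRP94, had 159, 162 and 170 FPKM in conditioned libraries, against 177, 170 and 175 FPKM in control libraries. Its groups were close to touching, between conditioned replicate 3 and control replicate 2, and its log2 fold change of -0.09 ± 0.04 SE did not pass (adjusted p = 0.233).

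Promoters of several members carry the ER stress response element (ERSE), which is CCAAT followed after 9 bases by CCACG and is bound by ATF6 together with NF-Y. RefSeq promoter windows (GRCm38.p6, 250 bases before to 50 after a start site) were found for 27 of the 32 members by symbol, and not for Atf6, Sec61a1, Manf, Hyou1 and Fkbp10. ERSE was found on either strand in 8 of the 27, and in 37 of 27025 genes (0.137%), a count that includes those 8. No test was made of the shares of genes with an element. A second form, ERSE-II (ATTGG followed after 1 base by CCACG), was found in Herpud1 and Dnajb11, against 12 genes in all (0.0444%), and the XBP1 element UPRE (TGACGTGG) in Sec23a and Sec24d, against 193 genes in all (0.714%). The 3 searches share the letters CCACG or their complement, and no window of a member held more than 1 kind. The stretches below are all ERSE and ERSE-II matches in the members, shown so that the values of these genes can be read beside the element; other members that the stress response raises, such as Dnajb9, had no match in the window. Capitals mark the match, read 5′ to 3′ on the strand of the gene, with 5 bases on each side.
Hspa5: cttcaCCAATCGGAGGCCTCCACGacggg
Hsp90b1, distal: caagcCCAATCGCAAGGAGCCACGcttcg
Hsp90b1, proximal: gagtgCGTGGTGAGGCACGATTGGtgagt
Calr: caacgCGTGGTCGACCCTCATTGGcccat
Canx: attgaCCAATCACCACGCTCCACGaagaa
Pdia6: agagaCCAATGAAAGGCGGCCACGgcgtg
Dnajc3: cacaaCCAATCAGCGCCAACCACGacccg
Creld2: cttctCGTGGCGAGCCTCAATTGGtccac
Syvn1: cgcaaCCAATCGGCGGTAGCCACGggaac
Herpud1, ERSE-II: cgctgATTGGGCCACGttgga
Dnajb11, ERSE-II: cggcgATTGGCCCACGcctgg
The Hspa5 stretch lies at chr2:34772020-34772048 on the plus strand and the Calr stretch at chr8:84847070-84847098 on the minus strand. Those of Hsp90b1 lie at chr10:86705633-86705661 and chr10:86705528-86705556 on the minus strand. The Canx stretch lies at chr11:50325795-50325823 on the minus strand, and those of Pdia6, Dnajc3 and Herpud1 lie on the plus strand at chr12:17266486-17266514, chr14:118937822-118937850 and chr8:94386372-94386392. Those of Creld2, Syvn1 and Dnajb11 lie on the plus strand at chr15:88819515-88819543, chr19:6046527-6046555 and chr16:22857847-22857867. In Calr, in Creld2 and in the proximal match of Hsp90b1 the element runs opposite to the gene.

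None of the 10 members with ERSE or ERSE-II passed in limma (0 by voom, 1 at an unadjusted p below 0.05). Their log2 fold changes ran from -0.09 for Hsp90b1 to 0.07 for Dnajb11, with a median of -0.02. Over the whole table, 24 tested genes had either element, and 0 of them passed in limma (1 by voom, 3 at an unadjusted p below 0.05, median log2 fold change -0.03, lowest adjusted p = 0.146). Of the 8522 tested genes with a window and neither element, 6.55% passed, so a count of 0 among 10 or 24 genes is near that share. Among the 17 members with a window and neither element, 1 passed, P4hb, and the median was -0.07. The 5 members without a window included the other 2 that passed, Sec61a1 and Fkbp10. A match is a description of these letters and not of binding.

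**Figure D2:**
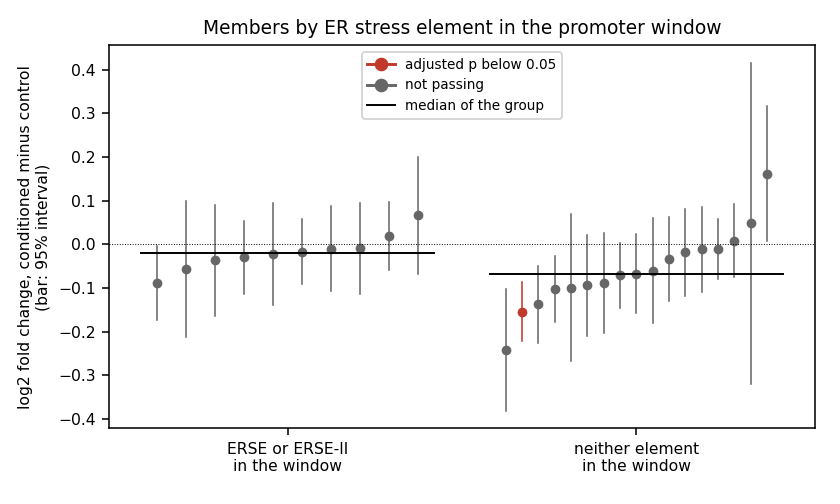
Log2 fold change, conditioned minus control, of the 27 members with a promoter window, split by whether the window holds ERSE or ERSE-II, with 95% intervals and a line at the median of each group. The 10 genes with an element sit between -0.09 and 0.07, and the 17 without range from -0.24 to 0.16.

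Of BiP and its 6 partners among the members, 0 passed in limma (1 by voom, 3 at an unadjusted p below 0.05). Dnajb9 (ERdj4), a J-domain protein that binds BiP and IRE1, had the lowest log2 fold change of all 32 members, -0.24 ± 0.06 SE. Its level was 9.99, 10.4 and 10.6 FPKM in conditioned libraries, against 13.4, 12.5 and 11.4 FPKM in control libraries. The groups did not overlap, and the adjusted p of 0.0569 missed the threshold. Dnajb9 was called lower by voom (adjusted p = 0.0222), with a filter at 5 FPKM (0.0378), with values scaled to fragment totals (0.0489) and without control replicate 3 (0.0258). Sdf2l1, a partner of the J-domain proteins, was the member with the highest log2 fold change, 0.16 ± 0.07 SE, and did not pass (adjusted p = 0.231). It had 22.7, 22.0 and 19.6 FPKM in conditioned libraries, against 18.2, 18.4 and 20.5 FPKM in control libraries, with overlap of conditioned replicate 3. Dnajb11 (ERdj3), Dnajc3 (p58IPK) and Hyou1, the exchange factor of BiP, had log2 fold changes of 0.07, -0.01 and -0.01 with overlapping groups.

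Among the disulfide isomerases, P4hb fell. It encodes protein disulfide isomerase, which is also the beta subunit of collagen prolyl 4-hydroxylase, and it was the most abundant member. Its level was 426, 415 and 417 FPKM in conditioned libraries, against 461, 467 and 473 FPKM in control libraries, with a clear gap between the groups. The log2 fold change was -0.15 ± 0.03 SE (limma adjusted p = 0.0184). The call was lost without conditioned replicate 1, 2 or 3 (adjusted p = 0.0637, 0.115 and 0.0737) or control replicate 2 (0.0730), with log2 fold changes of -0.165 to -0.147. It was also lost without the trend and robust prior of limma (0.0810). P4hb lies on chromosome 11 from 120560298 to 120573253 on the minus strand (mm10).

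The other 5 disulfide isomerases and relatives did not pass. Pdia5 had 28.4, 29.9 and 28.5 FPKM in conditioned libraries, against 31.3, 31.8 and 32.7 FPKM in control libraries. The groups did not overlap, with a log2 fold change of -0.14 ± 0.04 SE (adjusted p = 0.0815). Pdia3 (ERp57), which works with calnexin and calreticulin on glycoproteins, had 350, 353 and 364 FPKM in conditioned libraries, against 374, 366 and 380 FPKM in control libraries. Its groups did not overlap either, but by a narrow margin, and the log2 fold change was -0.07 ± 0.03 SE (adjusted p = 0.270). Erp44, which retains client proteins in the early secretory pathway, had a log2 fold change of -0.09. Pdia4 and Pdia6 both had -0.01, and Pdia4 averaged 120 ± 1.06 FPKM in conditioned and 121 ± 1.06 FPKM in control libraries.

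The lectin chaperones, which hold newly made glycoproteins by their sugars, overlapped between the media. Calreticulin (Calr) had 407, 405 and 382 FPKM in conditioned libraries, against 397, 411 and 410 FPKM in control libraries. Calnexin (Canx), its membrane-bound relative, averaged 136 ± 1.97 FPKM in conditioned and 134 ± 3.57 FPKM in control libraries. Their log2 fold changes were -0.03 and 0.02 (adjusted p = 0.716 and 0.818).

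Of the prolyl isomerases, Fkbp10 fell. It encodes FKBP65, an ER chaperone of procollagen whose loss causes brittle bones in humans. Its level was 156, 151 and 148 FPKM in conditioned libraries, against 166, 167 and 172 FPKM in control libraries. All conditioned libraries lay below all controls, with a log2 fold change of -0.16 ± 0.03 SE (limma adjusted p = 0.0334). The call was lost without any 1 of the 3 conditioned replicates (adjusted p = 0.0652, 0.146 and 0.117 without replicates 1, 2 and 3) and without control replicate 2 or 3 (0.101 and 0.0768). It was also lost with no filter on low values (0.0742) and without the trend and robust prior (0.0991), while the log2 fold change stayed between -0.14 and -0.18 in all 16 alternatives. Fkbp10 lies on chromosome 11 from 100415697 to 100424824 on the plus strand (mm10) and shares 193 exonic bases with Nt5c3b on the opposite strand, which averaged 6.73 FPKM. The strand setting of the counting is not given in the sources used here, so fragments of that stretch cannot be assigned with certainty. Ppib (cyclophilin B), which acts with prolyl 3-hydroxylase on collagen, averaged 31.5 ± 1.33 FPKM in conditioned and 33.7 ± 1.78 FPKM in control libraries and did not pass (adjusted p = 0.357). Fkbp2 was the most variable member, with a 95% interval of -0.32 to 0.42, and it had the fewest fragments.

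The secreted ER stress proteins did not differ beyond their spread. Creld2 had 31.2, 29.8 and 28.9 FPKM in conditioned libraries, against 28.7, 30.6 and 34.6 FPKM in control libraries. Manf averaged 29.4 ± 1.11 FPKM in conditioned and 30.1 ± 0.678 FPKM in control libraries. Manf shares exonic bases with 3 other genes, among them 146 with Dcaf1 on the opposite strand, and 11 of the 32 members share exonic bases with at least 1 other gene, by up to 825 bases for Ppib with Snx22.

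The genes of ER-associated degradation, which move misfolded proteins to the cytosol for the proteasome, overlapped between the media in all 4 cases. Syvn1, the ubiquitin ligase HRD1, had 19.2, 17.7 and 18.1 FPKM in conditioned libraries, against 18.1, 18.2 and 20.2 FPKM in control libraries. Sel1l, its adaptor, averaged 27.7 ± 0.869 FPKM in conditioned and 27.9 ± 0.963 FPKM in control libraries. Herpud1, a membrane scaffold of the same complex that the unfolded protein response strongly raises, averaged 25.6 ± 0.318 FPKM in conditioned and 26.0 ± 1.74 FPKM in control libraries. Edem1, a mannosidase-like protein that selects glycoproteins for degradation, had 16.4, 16.6 and 16.7 FPKM in conditioned libraries, against 17.0, 17.4 and 16.0 FPKM in control libraries. The 4 log2 fold changes lay between -0.04 and -0.01, with adjusted p from 0.782 to 0.919.

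In the translocon, Sec61a1 fell, with the lowest adjusted p of all members. It encodes the pore-forming alpha subunit of the Sec61 channel. Its level was 39.4, 38.0 and 40.6 FPKM in conditioned libraries, against 47.3, 45.3 and 46.0 FPKM in control libraries. The highest conditioned library lay well below the lowest control, and the log2 fold change was -0.23 ± 0.04 SE (limma adjusted p = 0.0119). The call was lost without conditioned replicate 1 (adjusted p = 0.0546) or replicate 2 (0.0620) and kept without each of the other 4 libraries, with log2 fold changes of -0.20 to -0.25. Sec61a1 lies on chromosome 6 from 88503579 to 88518905 on the minus strand (mm10) and shares 549 exonic bases with Gm44170 on the opposite strand. The other Sec61 subunit among the members, Sec61b, averaged 43.6 ± 2.96 FPKM in conditioned and 46.8 ± 4.07 FPKM in control libraries. Ssr1, of the translocon-associated TRAP complex, averaged 27.6 ± 0.591 FPKM in conditioned and 29.0 ± 0.929 FPKM in control libraries. Neither passed (adjusted p = 0.516 and 0.408).

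The COPII coat members, which take cargo out of the ER, overlapped between the media. Sec23a, of the inner coat, had 54.0, 50.8 and 53.8 FPKM in conditioned libraries, against 55.2, 55.3 and 51.9 FPKM in control libraries. Sec24d, a cargo-binding subunit needed for procollagen export in zebrafish cartilage, averaged 56.3 ± 1.29 FPKM in conditioned and 56.0 ± 1.49 FPKM in control libraries. Their log2 fold changes were -0.03 and 0.01.

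**Figure D3:**
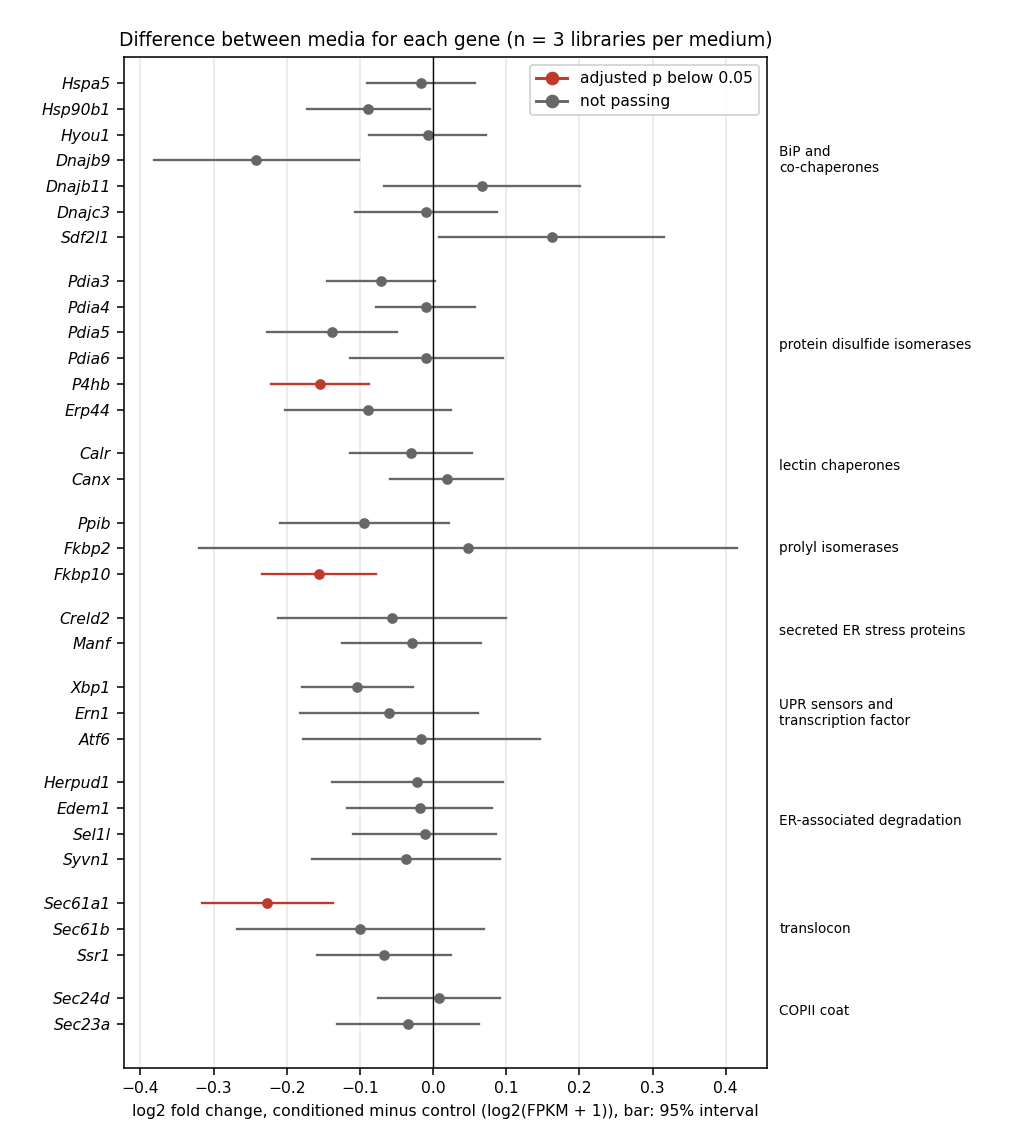
Log2 fold change of each of the 32 genes, conditioned minus control, with its 95% interval from limma, in rows grouped by role. Sec61a1, P4hb and Fkbp10 pass the adjusted threshold, all to the left of 0, and Dnajb9 has the lowest value with a wider interval.

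Other genes of the same pathway were read from lists of names. Over all tested genes, 2.49% were called lower and 4.04% higher in limma, and 4.10% lower and 5.56% higher by voom. At an unadjusted p below 0.05 in limma, 8.41% were lower and 11.2% higher. No test compared a list with these shares. Of 38 tested genes for further ER folding and redox, 4 fell, 1 rose and 33 did not pass, with a median log2 fold change of -0.08. In this list 17 had an unadjusted p below 0.05 and voom called 10. The 4 that fell were Fkbp7 (-0.33), Ppic (-0.19), Fkbp14 (-0.17) and Serpinh1 (-0.17), all prolyl isomerases except Serpinh1, the collagen chaperone HSP47. Serpinh1 averaged 858 ± 31.8 FPKM in conditioned and 967 ± 36.8 FPKM in control libraries (adjusted p = 0.0475). Fkbp14, which acts on collagen in the ER, averaged 27.2 ± 0.341 FPKM in conditioned and 30.8 ± 0.651 FPKM in control libraries (adjusted p = 0.0264). The gene that rose was Qsox1, a secreted disulfide-forming oxidase, at 72.8 ± 0.932 FPKM in conditioned and 63.9 ± 1.84 FPKM in control libraries (adjusted p = 0.0177).

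Transport between ER and Golgi had 4 lower and 0 higher of 31 tested (6 at an unadjusted p below 0.05, 5 by voom). Surf4, a cargo receptor of the early secretory pathway, had 141, 139 and 140 FPKM in conditioned libraries, against 167, 162 and 168 FPKM in control libraries. That gap of -0.24 ± 0.03 SE had the lowest adjusted p of the pathway lists apart from the cargo (0.00256). Kdelr2 and Kdelr3, receptors that return chaperones with a KDEL tail to the ER, fell by 0.19 and 0.23 on the log2 scale (adjusted p = 0.0194 and 0.0163). Sar1a, the GTPase that starts the COPII coat, had -0.15 (adjusted p = 0.0285). The list of translocon, signal peptidase and oligosaccharyltransferase genes had 2 lower, Ssr3 and Dad1 (both -0.15), and 0 higher of 34 (5 at an unadjusted p below 0.05, 3 by voom). A count of 2 among 34 is near the 6.53% of all tested genes called in either direction.

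Of 17 further sensors, proteases and transducers of the unfolded protein response, 1 fell, Yipf5 (-0.17, adjusted p = 0.0328), a membrane protein of ER to Golgi transport, and 0 rose (4 at an unadjusted p below 0.05, 3 by voom). Of 23 further degradation genes 0 passed in limma (0 by voom, 6 at an unadjusted p below 0.05). The most abundant of those, Vcp, the ATPase that extracts proteins from the ER membrane, averaged 102 ± 7.12 FPKM in conditioned and 105 ± 4.42 FPKM in control libraries. Ufd1 and Derl1, which work with it, differed by -0.14 and -0.12 on the log2 scale without passing (adjusted p = 0.0838 and 0.0973). Counts of 1 among 17 and 0 among 23 are near the 6.53% of all tested genes called in either direction.

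The cargo of this machinery in tendon fibroblasts is the secreted matrix. Of 20 collagens and other secreted matrix genes, 11 fell and 0 rose (13 at an unadjusted p below 0.05, 13 by voom), with a median log2 fold change of -0.16. The list summed to 11000 to 11200 FPKM in conditioned and 12500 FPKM in control libraries. Col1a1 alone averaged 2662 FPKM in conditioned and 3337 FPKM in control libraries. The point estimate was below 0 for 18 of the 20, against 48.0% of all tested genes, and 9 did not pass. Among those 9, Fn1 and Col6a3 had log2 fold changes of 0.15 and 0.02, and Col6a1, Bgn and Timp1 had -0.02, -0.03 and -0.01. Lum and Dcn, small proteoglycans that bind collagen, had log2 fold changes of -0.40 and -0.45, and Col1a2 averaged 809 ± 19.8 FPKM in conditioned and 1040 ± 25.2 FPKM in control libraries. Fmod, Postn and Col14a1 had -0.46, -0.41 and -0.60. The cargo list, like the members and the other lists, was chosen with earlier results of these data known, and no test compared the lists.

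**Figure D4:**
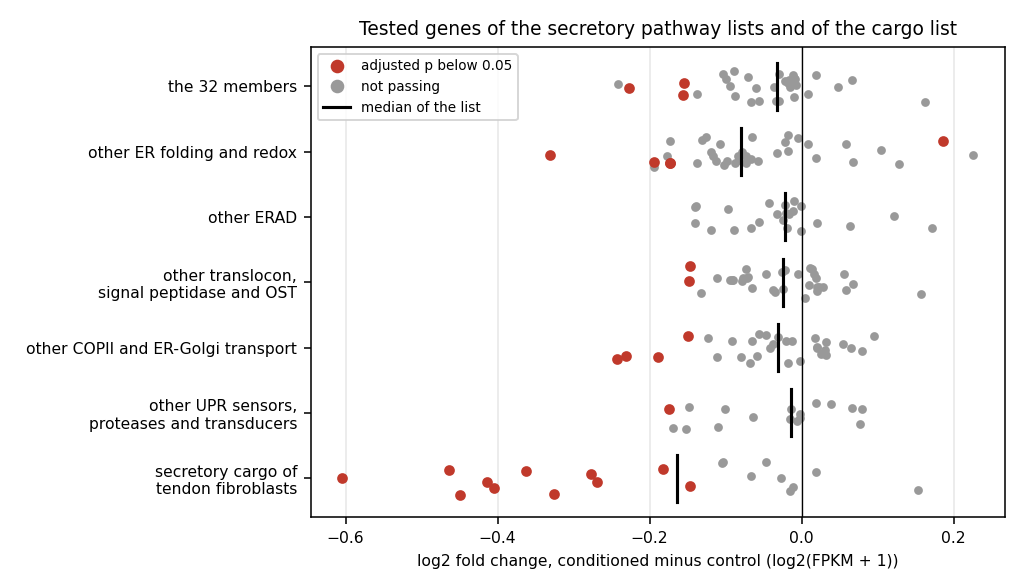
Log2 fold change, conditioned minus control, of every tested gene in the 32-gene set, in 5 further lists of the secretory pathway and in the cargo list, with a bar at each median. The cargo list has 11 of 20 genes past the threshold and a median of -0.16, and the 32 genes have 3 and a median of -0.03.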

How the data were processed

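RNA-seq of 6 libraries (3 in DRG conditioned medium, 3 in 1% FBS medium) was read as FPKM values that the authors deposited for 24413 genes. CASAVA, the mm10 build and HISAT2 2.0.5 are named in the submitters' processing notes, with no role for each. For the counting program, annotation release, strand setting and filters, the entry is: not given in the sources used here. The median ratio of each library to the gene-wise geometric mean was equal in all 6 to within 4.0e-15 on the log2 scale over 16925 genes above 0 in every library, so the deposited values already carried such a scaling. Within a gene the values were whole multiples of 1 fragment (within 0.01 fragment for 24413 genes), which gave fragments per gene and depth. Where no annotated length fitted, the shortest length giving whole fragments was taken, so a total is approximate.

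Genes averaging 1 FPKM or more were tested as log2(FPKM + 1) with limma 3.58.1 in R 4.3.3 (trend, robust prior, two-sided, no covariate). This pseudocount understates changes of low genes. Intervals are at 95%. The functions were tested on simulated data. The changes set there were larger than those of the members called, so recovery of such small changes was not tested. Every member is described by role. Other genes were named where they passed and averaged at least 5 FPKM, up to 6 per list by size of change, or else as the most abundant and those with the smallest p. The members and lists were chosen with earlier results of these data known. Tables were handled with Python 3.11.15 and pandas 2.3.3. Promoter sequences are from RefSeq, and gene positions and overlaps from GENCODE on the same build.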

Additional observations from a re-analysis of the deposited data

How the results depend on the processing

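Across 16 alternatives, 28 members were called in none, the count of members called higher stayed at 0, and Sec61a1, P4hb and Fkbp10 kept their direction in all 16. One of the 16, median of ratios scaling, could only repeat the main fit, since the deposited values already carried that scaling. Ern1 was tested in 15. In this section, counts in the further lists include the cargo list. The main fit called 23 genes in them and 763 over the table. With the replicate number as a block, 0 members were called lower (adjusted p = 0.0581 for Sec61a1, 0.137 for P4hb and 0.168 for Fkbp10), 390 genes were called over the table and 9 in the further lists. Over all tested genes, same-numbered libraries did not deviate together from their group means (correlations -0.095, -0.008 and -0.048). Such correlations cannot exclude a pairing that acts on part of the genes, and no label says whether the numbers stand for one. Without trend and robust prior, 1 member and 9 genes of the further lists were called. Without each library in turn, members called lower numbered 0 to 3, members that did not overlap 8 to 13, genes called among all those tested 394 to 676 and genes called in the further lists 10 to 22, while the median of the members ran from -0.052 to -0.031. These fits have fewer samples. The fit with no low filter, which tests more genes, called 492 genes. Of these, 12 were in the further lists with the cargo, against 23 in the main fit. The median of the members was -0.066 with quantile normalization, -0.042 with voom and -0.040 with scaling to fragment totals, an alternative chosen after seeing the data. The median of all tested genes was -0.011 with quantile normalization, -0.002 with voom and with fragment totals, -0.004 with no low filter, 0.003 with a pseudocount of 5 and 0.010 with a filter at 5 FPKM. The cause of these shifts was not tested. Count models other than voom were not run, since the deposited values are not counts.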
